A study of Chlamydomonas reinhardtii with 9 samples.

Results

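Nitrogen assimilation genes were followed in Chlamydomonas reinhardtii, a unicellular green alga, in wild type, crpaf1-1 and crskip-1 cells (3 libraries each). The set was given as 9 gene IDs with their names; its rule uses no measured value, although it was drawn up with earlier results of these data known. It comprises NIT1, NII1, NRT2.1, NIT2, AMT4, GLN1, GLN2, GLN3 and GSN1, and 8 of the 9 are among the 14621 genes of the deposited count tables; GLN2 (Cre12.g530650_4532.v6.1) was not analysed here. All groups share the strain, CC5325, the acetate medium TAP, which supplies ammonium as its nitrogen source, growth at 22 °C with 14 h light and 10 h dark, and a harvest at the end of G1. PAF1 belongs to a complex that accompanies RNA polymerase II, and SKIP is a spliceosome protein that also acts in transcription. Each mutant is represented by 1 line, and the sources used here do not say how the mutations were made or whether this strain carries working NIT1 and NIT2 genes.

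Chlamydomonas takes up nitrate through transporters of the NRT2 family, reduces it to nitrite with nitrate reductase and then, in the chloroplast, to ammonium with nitrite reductase. The genes for these steps lie close together and are known to be switched on by nitrate through the regulator NIT2 and to be kept off by ammonium. Ammonium, taken up directly or made from nitrate, is joined to glutamate by glutamine synthetase, and glutamate synthase then passes the new amino group on to 2-oxoglutarate.

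Messenger RNA was read by oligo(dT) selection and paired-end sequencing, and the deposited tables give whole-number counts per gene, with 13907142 to 19725439 counts per library. Log2 CPM (counts relative to the TMM-scaled size of the library) correlated at 0.993 to 0.995 between replicates across genes. Replicate 1 of each group came from lane 3 and replicates 2 and 3 from lane 2, per the file headers, so each group is spread over the lanes in the same way. The labels do not tell whether replicates came from different cultures; the p-values then measure library-to-library spread only, and this spread may be technical. In bulk RNA, fewer cells expressing a gene and less of its RNA per cell cannot be told apart. The 8 listed genes together took 0.118 to 0.139% of the counts of a library.

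The nitrate uptake and reduction genes were close to silent in wild type and in both mutants, apart from NII1. NIT1 (Cre09.g410950_4532.v6.1), which encodes nitrate reductase, occupies 5765942 to 5773475 of chromosome 9 (plus strand, 16 blocks of merged exons). Its counts in replicates 1, 2 and 3 were 1, 0 and 2 in the wild type, 1, 0 and 0 in crpaf1-1, and 0, 0 and 0 in crskip-1. NRT2.1 (Cre09.g410850_4532.v6.1), a nitrate transporter gene at 5758011 to 5762002 (minus strand, 6 blocks), had counts of 1, 0 and 2 in the wild type, 1, 0 and 4 in crpaf1-1, and 0, 0 and 2 in crskip-1. No group stood apart for either gene.

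Over the 3 libraries of a group, NIT1 had 3 counts in wild type (exact Poisson 95% interval 0.619 to 8.77), 1 in crpaf1-1 (0.0253 to 5.57) and 0 in crskip-1 (0 to 3.69). These intervals cover counting error only. Both genes fell below the filter on low counts and have no place in the tests below; at this depth a difference between groups was not detectable. A floor of 3 counts in 1 library corresponds to 0.141 to 0.235 CPM. With no filter both genes were tested and passed in none of the 3 comparisons (edgeR adjusted p 0.175 to 0.468 for NIT1 and 0.651 to 0.859 for NRT2.1).

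NII1 (Cre09.g410750_4532.v6.1), the nitrite reductase gene, at 5746672 to 5752076 of chromosome 9 (minus strand, 10 blocks), was the exception among the nitrate genes. It gave 67 to 125 counts in each library. Its level was 4.80, 7.74 and 7.62 CPM in the wild type, 3.99, 5.25 and 3.72 CPM in crpaf1-1, and 4.93, 5.28 and 6.58 CPM in crskip-1. The wild-type library of lane 3 was as low as the mutants, so the groups overlapped. NII1 fell in crpaf1-1 by 0.63 on the log2 scale (SE 0.18, adjusted p = 0.0069, edgeR quasi-likelihood test with Benjamini-Hochberg adjustment), to 4.32 ± 0.815 CPM from 6.72 ± 1.67 CPM (SD, n = 3). In crskip-1, at 5.60 ± 0.871 CPM (SD, n = 3), the log2 fold change of -0.26 (SE 0.18) did not pass (adjusted p = 0.257), but it did without wild type replicate 1 (log2 -0.47, adjusted p = 0.024). Between the mutants its log2 difference of -0.37 (SE 0.19) did not pass (edgeR adjusted p = 0.114), but it did without crpaf1-1 replicate 2 (log2 -0.53, adjusted p = 0.0448).

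**Figure D1:**
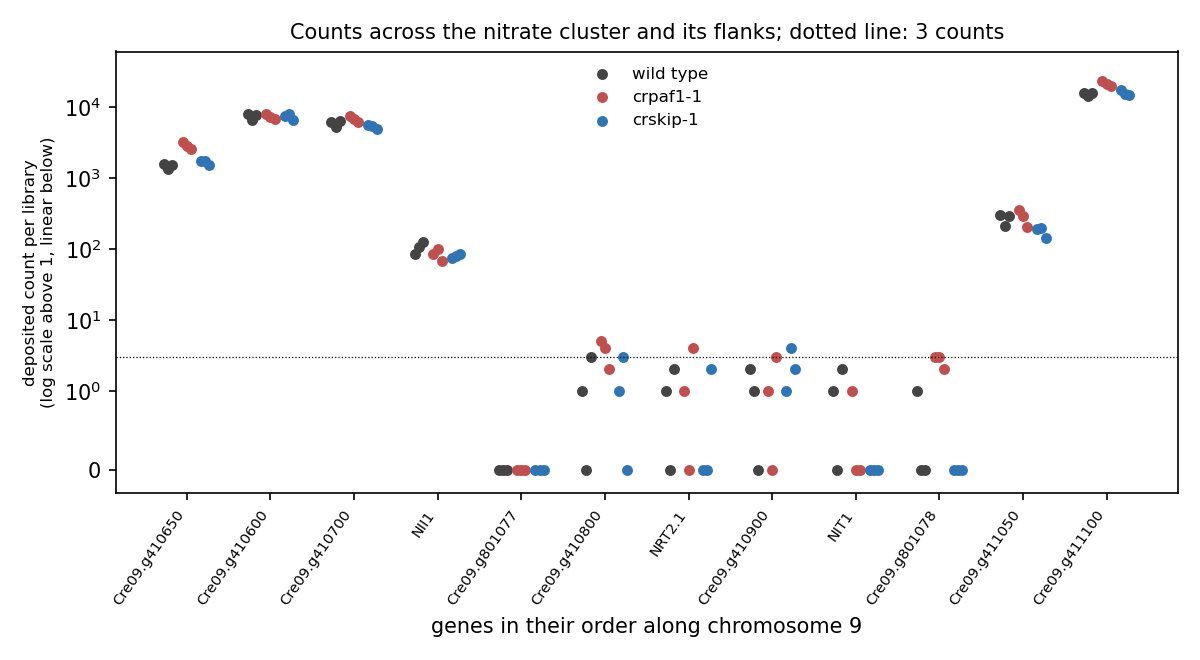
Deposited counts per library (vertical axis, log scale above 1 and linear below) of NII1, NRT2.1, NIT1 and the genes between and beside them, in their order along chromosome 9; each point is 1 library of wild type, crpaf1-1 or crskip-1, and the dotted line marks 3 counts. NII1 sits at 67 to 125 counts, the 5 genes from Cre09.g801077 to NIT1 at 0 to 5, and the genes farther out at 142 to 23359, apart from Cre09.g801078 at 0 to 3.

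The 3 nitrate genes span 26804 bases, and 3 other listed genes lie between them. Those, too, had 0 to 5 counts in every library. Cre09.g801077_4532.v6.1, which shares 397 exonic bases with NII1 on the opposite strand, had 0 counts in all 9 libraries. Cre09.g410800_4532.v6.1, next to NRT2.1 on the same strand, had 19 counts over the 9 libraries, and Cre09.g410900_4532.v6.1, between NRT2.1 and NIT1, had 14, against 4 for NIT1 and 10 for NRT2.1. In crpaf1-1, Cre09.g410800_4532.v6.1 had 11 counts (exact Poisson 95% interval 5.49 to 19.7). Wild type and crskip-1 had 4 each (1.09 to 10.2), so the intervals overlapped, and crpaf1-1 had the largest total of counts. The files pair no ID with a name, so these genes are left unnamed.

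Beyond the cluster the counts rose within a gene or so. On the NII1 side, Cre09.g410700_4532.v6.1, Cre09.g410600_4532.v6.1 and Cre09.g410650_4532.v6.1 had 4837 to 7394, 6421 to 7902 and 1334 to 3142 counts per library. On the NIT1 side, Cre09.g801078_4532.v6.1 had 0 to 3 counts, Cre09.g411050_4532.v6.1 142 to 351 and Cre09.g411100_4532.v6.1 14132 to 23359. The lowest of these, Cre09.g801078_4532.v6.1, had 3, 3 and 2 counts in crpaf1-1, 1, 0 and 0 in wild type and none in crskip-1, too few for a fold change.

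Of the 9 genes between and beside the nitrate genes, 5 passed the filter, all of them beside the cluster and none between. These 5 did not move as a block, which says nothing about the genes between. Against wild type 2 were higher and 1 lower in crpaf1-1, and 3 were higher and 1 lower in crskip-1; 58.4% and 49.5% of all 13376 genes tested were called in those comparisons. With library size alone the crskip-1 calls were 1 higher and 2 lower, where 50.4% of all genes were called. Cre09.g410600_4532.v6.1 and Cre09.g411100_4532.v6.1 were then no longer called, and Cre09.g410700_4532.v6.1 was called lower. The largest change in crskip-1 was that of Cre09.g411050_4532.v6.1, from 16.7 CPM in the wild type to 12.3 CPM (log2 -0.45, SE 0.12, adjusted p = 0.00623, edgeR). In crpaf1-1 it was that of Cre09.g410650_4532.v6.1, with 93.1 CPM in the wild type, 146 CPM in crpaf1-1 (log2 0.65, SE 0.05) and 117 CPM in crskip-1 (log2 0.33, SE 0.05). Its neighbour Cre09.g410600_4532.v6.1, which lies within its span on the opposite strand, went from 464 CPM to 373 CPM in crpaf1-1 (log2 -0.32, SE 0.04) and 510 CPM in crskip-1 (log2 0.14, SE 0.04). Whether the exons of this pair overlap was not examined. Where they do, reads may not be told apart, so the values of both genes are uncertain. Adjusted p-values of the 4 differences of this pair ran from 1.84e-09 to 0.00907 (edgeR), and the rise of Cre09.g410600_4532.v6.1 in crskip-1 did not pass with library size alone or in lane 2 alone.

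The regulator NIT2 (Cre03.g177700_4532.v6.1), a transcription factor of the RWP-RK family needed for the response to nitrate, was expressed throughout and was higher in crpaf1-1. It occupies 4760104 to 4767272 of chromosome 3 (plus strand, 8 blocks), and its last 193 bases overlap exons of Cre03.g177750_4532.v6.1 on the same strand. Its level was 29.5, 27.0 and 29.2 CPM in the wild type, 37.4, 34.3 and 33.8 CPM in crpaf1-1, and 31.8, 28.1 and 29.4 CPM in crskip-1. All crpaf1-1 libraries were above the other libraries, while wild type and crskip-1 overlapped. NIT2 was 1.23-fold higher in crpaf1-1 than in wild type (log2 0.30, SE 0.07, adjusted p = 0.00138) and 1.18-fold higher than in crskip-1 (log2 0.24, SE 0.07, adjusted p = 0.00753, edgeR; 0.45 with scaling by library size alone). Its log2 fold change of 0.06 in crskip-1 against wild type (SE 0.07) did not pass (edgeR adjusted p = 0.541), and it was -0.07 with scaling by library size alone. The overlapping Cre03.g177750_4532.v6.1 did not pass in crpaf1-1 against wild type (log2 0.17, SE 0.09, adjusted p = 0.126) and was higher in crskip-1 (log2 0.39, SE 0.10, adjusted p = 0.00271, edgeR); its part in the NIT2 values was not tested.

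NIT2 stood far above NIT1 and NRT2.1 in the same libraries, and closer to NII1. Per length, NIT2 measured 4.82 ± 0.224 CPM per kb of exon in wild type, and NIT1 reached at most 0.0315 CPM per kb in any library. The level of NIT2 over that of NII1 within a library, both per kb, was 2.95, 1.68 and 1.84 in the wild type, 4.50, 3.14 and 4.36 in crpaf1-1, and 3.10, 2.55 and 2.14 in crskip-1. This ratio does not depend on how libraries are scaled, but it was not among the planned results, so no test is given for it. Every crpaf1-1 library lay above every wild-type library, though narrowly (lowest 3.14 against highest 2.95). The NII1 values in it rest on 67 to 125 counts per library. In crpaf1-1, NIT2 rose while NII1 fell.

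AMT4 (Cre13.g569850_4532.v6.1), an ammonium transporter gene at 1191779 to 1196487 of chromosome 13 (plus strand, 7 blocks), was weakly expressed and higher in crpaf1-1. It measured 5.55, 4.34 and 3.96 CPM in the wild type, 6.56, 6.99 and 6.22 CPM in crpaf1-1, and 5.27, 6.75 and 6.03 CPM in crskip-1. All crpaf1-1 libraries exceeded all wild-type libraries, and those of crskip-1 overlapped both groups. AMT4 rose 1.42-fold in crpaf1-1 (log2 0.51, SE 0.14, adjusted p = 0.00512, edgeR).

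In crskip-1 the fitted rise of AMT4, 1.30-fold (log2 0.38, SE 0.15), passed narrowly (edgeR adjusted p = 0.0453). It passed under 6 of 17 alternatives, with an adjusted p of 0.00819 to 0.199 over all of them. It did not pass without wild type replicate 2 or 3, without crskip-1 replicate 2 or 3, or without any one crpaf1-1 library. In lane 2 alone its log2 fold change in crskip-1 was 0.62 (adjusted p = 0.00819, edgeR), while the libraries of lane 3, 1 per group, differed by -0.07. The mutants did not differ from each other past the threshold (log2 0.13, SE 0.14, adjusted p = 0.437), except with scaling by library size alone (log2 0.34, adjusted p = 0.0446, edgeR).

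The last 309 bases of AMT4 overlap exons of Cre13.g569900_4532.v6.1 on the opposite strand, and no source used here says whether counting used strand. That gene rose to 17.7 ± 0.638 CPM in crpaf1-1 from a wild-type level of 12.9 ± 0.651 CPM (SD, n = 3; log2 0.46, SE 0.08, adjusted p = 9.08e-05, edgeR), and its part in the AMT4 result was not tested.

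Glutamine synthetase, which fixes ammonium into glutamine, is represented by GLN1 and GLN3. GLN1 (Cre02.g113200_4532.v6.1), the cytosolic form, occupies 5318168 to 5322684 of chromosome 2 (plus strand, 8 blocks). It had the highest level per length of the set and rose in crpaf1-1 by little but with tight replicates. Its level was 551, 566 and 553 CPM in the wild type, 639, 680 and 656 CPM in crpaf1-1, and 612, 594 and 592 CPM in crskip-1. The 3 groups did not overlap, with wild type lowest and crpaf1-1 highest.

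GLN1 rose 1.18-fold in crpaf1-1 (log2 0.24, SE 0.04, adjusted p = 6.06e-05, edgeR). The 1.08-fold rise in crskip-1 (log2 0.11, SE 0.04, adjusted p = 0.0362, edgeR) rests on the scaling: with library size alone it was -0.02 (adjusted p = 0.723), and that scaling moves the median of all genes in this comparison to -0.12. It passed under 5 of 17 alternatives, and of the 9 fits that leave out 1 library only the one without wild type replicate 2 kept it. GLN1 was 1.10-fold higher in crpaf1-1 than in crskip-1 (log2 0.14, SE 0.04, adjusted p = 0.00896, edgeR; 0.34 with library size alone), but did not pass without crpaf1-1 replicate 2 (log2 0.11, adjusted p = 0.0507).

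GLN3 (Cre12.g530600_4532.v6.1), another glutamine synthetase gene, at 5534705 to 5538651 of chromosome 12 (minus strand, 5 blocks), was far less abundant and higher in both mutants. It measured 8.26, 8.46 and 6.59 CPM in the wild type, 9.38, 10.0 and 10.9 CPM in crpaf1-1, and 10.5, 12.2 and 12.5 CPM in crskip-1. Every mutant library was above every wild-type library. The rise was 1.51-fold in crskip-1 (log2 0.59, SE 0.12, adjusted p = 0.000466) and 1.30-fold in crpaf1-1 (log2 0.38, SE 0.12, adjusted p = 0.00985, edgeR). Without wild type replicate 3 the crpaf1-1 value no longer passed (log2 0.26, adjusted p = 0.0751), and the mutants did not differ from each other past the threshold (log2 -0.21, SE 0.11, adjusted p = 0.114).

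GLN3 counts are uncertain for more than one reason. Only uniquely mapped reads were counted, per the file headers, so reads that fit another glutamine synthetase gene equally well are missing. GLN3 also shares 434 exonic bases with Cre12.g530550_4532.v6.1 on the opposite strand, whose wild-type level was 28.1 ± 1.28, crpaf1-1 level 26.1 ± 1.46 and crskip-1 level 30.6 ± 1.08 CPM (SD, n = 3) and which passed in neither mutant against wild type (adjusted p 0.213 and 0.146, edgeR).

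GSN1 (Cre13.g592200_4532.v6.1), the gene of NADH-dependent glutamate synthase, which completes the assimilation of ammonium, moved in opposite directions in the mutants. It occupies 4271845 to 4284042 of chromosome 13 (minus strand, 20 blocks). Its level was 546, 655 and 659 CPM in the wild type, 469, 563 and 554 CPM in crpaf1-1, and 822, 813 and 839 CPM in crskip-1. The crskip-1 libraries were above all others, and wild type and crpaf1-1 overlapped because the lane 3 library was the lowest of each.

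GSN1 rose 1.33-fold in crskip-1 (log2 0.41, SE 0.07, adjusted p = 9.87e-05, edgeR) and fell in crpaf1-1 by 0.23 on the log2 scale (SE 0.07, adjusted p = 0.00916), or by 0.15 with library size alone (adjusted p = 0.0449). The fall did not pass without crpaf1-1 replicate 1 (log2 -0.15, adjusted p = 0.0543), and within lane 3 the single libraries differed by -0.22. In lane 2 alone the changes were 0.32 in crskip-1 and -0.24 in crpaf1-1. Tested directly, crskip-1 exceeded crpaf1-1 1.56-fold (log2 -0.64 for crpaf1-1 over crskip-1, SE 0.07, adjusted p = 6.47e-07, edgeR), which passed under all 17 alternatives.

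GSN1 shares 1375 of its 7782 exonic bases with Cre13.g592150_4532.v6.1 on the opposite strand. Its wild-type level was 115 ± 2.80, its crpaf1-1 level 123 ± 3.37 and its crskip-1 level 138 ± 2.98 CPM (SD, n = 3). That partner gene, too, was higher in crskip-1 (log2 0.27, SE 0.05, adjusted p = 0.000131, edgeR), and its part in the GSN1 result was not tested. In crpaf1-1 it did not pass (log2 0.10, SE 0.05, adjusted p = 0.0687, edgeR). Tested directly, the partner gene was lower in crpaf1-1 than in crskip-1 (log2 -0.16, SE 0.05, adjusted p = 0.00568, edgeR), the same direction as GSN1.

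**Figure D2:**
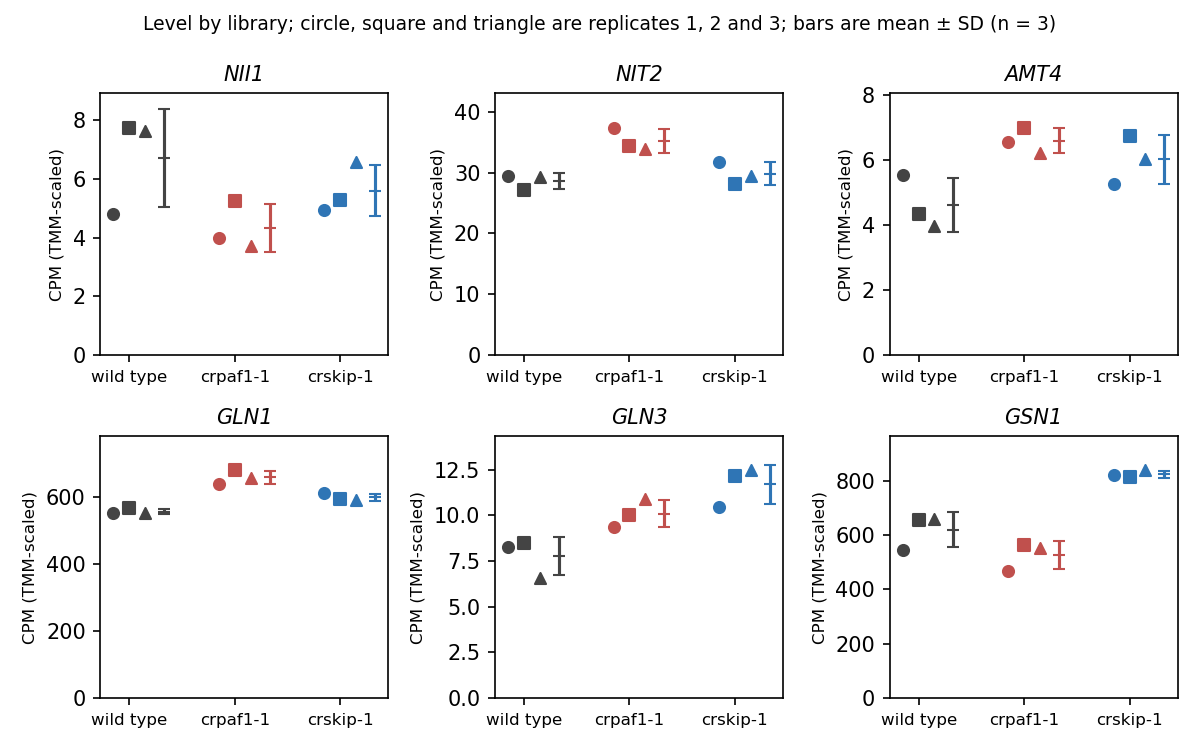
TMM-scaled CPM of the 6 genes that passed the filter, 1 panel per gene with its own axis from 0; circles, squares and triangles are replicates 1, 2 and 3, and the bars give mean ± SD (n = 3) of each group. GSN1 is highest in crskip-1 (813 to 839 CPM) and GLN1 and NIT2 in crpaf1-1 (639 to 680 CPM and 33.8 to 37.4 CPM).

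The level of GSN1 relative to GLN1, the 2 abundant genes of ammonium assimilation, therefore differed between the groups. In crpaf1-1 GLN1 rose and GSN1 fell. In crskip-1 both were called higher, GLN1 only narrowly and not with library size alone. Within a library, the level of GSN1 over that of GLN1, both per kb, was 0.257, 0.300 and 0.310 in the wild type, 0.190, 0.215 and 0.219 in crpaf1-1, and 0.349, 0.355 and 0.368 in crskip-1. The 3 groups did not overlap, and the order held within each lane: in lane 3 the ratio was 0.190 in crpaf1-1, 0.257 in wild type and 0.349 in crskip-1. The group means were 0.208 ± 0.0155, 0.289 ± 0.0281 and 0.357 ± 0.00958 in that order (SD, n = 3). The ratio is free of library scaling, and it was chosen after the values were seen, so no test is given for it.

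**Figure D3:**
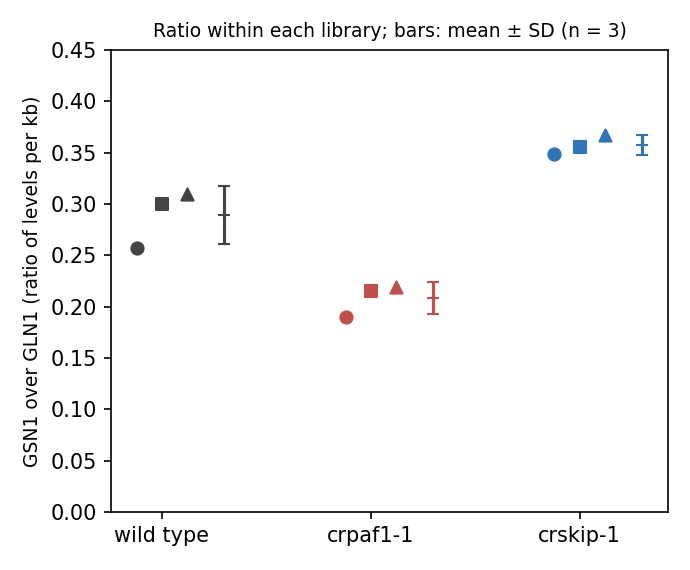
Level of GSN1 over GLN1 within each library (vertical axis, ratio of CPM per kb of exon, from 0); symbols are replicates 1, 2 and 3, and bars are mean ± SD (n = 3). The crpaf1-1 libraries lie at 0.190 to 0.219, wild type at 0.257 to 0.310 and crskip-1 at 0.349 to 0.368.

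Set side by side per length, the listed genes covered a wide range of levels in wild type. GLN1 measured 276 ± 4.18 CPM per kb, above 97.8% of the genes tested, and GSN1 79.7 ± 8.28 CPM per kb, above 93.1%. NIT2 at 4.82 ± 0.224 CPM per kb was near the middle, above 44.8% of genes tested. GLN3 at 2.50 ± 0.332, NII1 at 2.36 ± 0.585 and AMT4 at 1.40 ± 0.252 CPM per kb followed (SD, n = 3 each), and NRT2.1 and NIT1 came last.

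Neighbours in this order were not always distinct. In wild type the libraries of GLN3 (2.12 to 2.72 CPM per kb) and NII1 (1.69 to 2.72) overlapped. In crpaf1-1 AMT4 (1.89 to 2.13 CPM per kb) lay above NII1 (1.31 to 1.84), and in crskip-1 these genes overlapped (1.60 to 2.05 and 1.73 to 2.31). Removal of duplicate reads by the authors may lower the values of GLN1 and GSN1 more than those of the weaker genes.

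**Figure D4:**
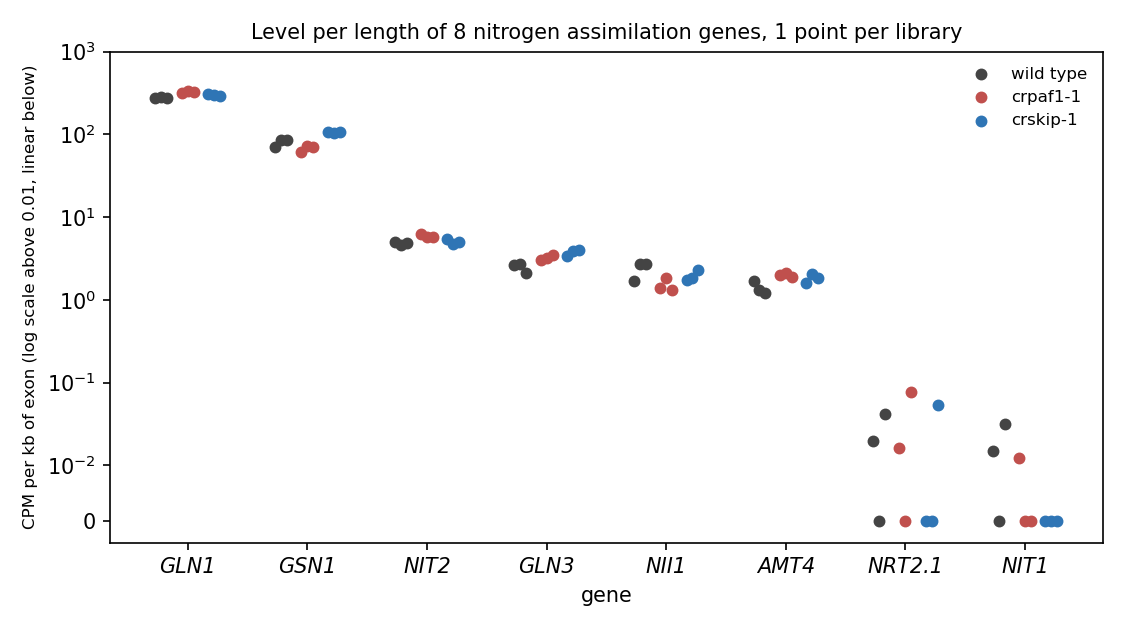
Level per length (CPM per kb of exon; log scale above 0.01, linear below) of the 8 listed genes in every library, ordered by their mean over all libraries; colours are wild type, crpaf1-1 and crskip-1. GLN1 (273 to 336) and GSN1 (60.2 to 108) stand far above the rest, and NRT2.1 and NIT1 lie at or near 0 in all groups.

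As a list, the 6 genes that passed the filter on low counts were all called in crpaf1-1 against wild type, 4 higher (NIT2, AMT4, GLN1, GLN3) and 2 lower (NII1, GSN1), where 58.4% of all genes tested were called (28.6% higher and 29.8% lower). Their median log2 fold change was 0.27, and that of all genes 0.0094. In crskip-1, 4 of the 6 were called, all higher (AMT4, GLN1, GLN3, GSN1), where 49.5% of all genes were called (24.4% higher and 25.1% lower); the median was 0.24 against 0.0045. With library size alone only GLN3 and GSN1 were called in crskip-1, where 50.4% of all genes were called. Between the mutants 3 of the 6 were called, NIT2 and GLN1 higher and GSN1 lower in crpaf1-1, near the 53.8% of all genes (25.7% higher and 28.2% lower). The values of the groups did not overlap for 4 of the 6 genes between crpaf1-1 and wild type, for 3 between crskip-1 and wild type and for 3 between the mutants, where 64.1%, 56.4% and 59.3% of all genes tested did not.

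Ranked by size among all genes tested, the changes of the members ran from small to fairly large. In crpaf1-1, NII1 changed more than 80.7% of all genes tested, AMT4 more than 74.0% and GLN1 more than 45.5%. In crskip-1, GLN3 changed more than 82.9%, GSN1 more than 72.3% and GLN1 more than 25.5%. Between the mutants GSN1 differed more than 83.7% of all genes tested. None of the 6 changed 2-fold in any comparison. The comparisons of the mutants with wild type share the same 3 control libraries, and a gene called in both, such as GLN3, was measured against the same low wild-type values each time.

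**Figure D5:**
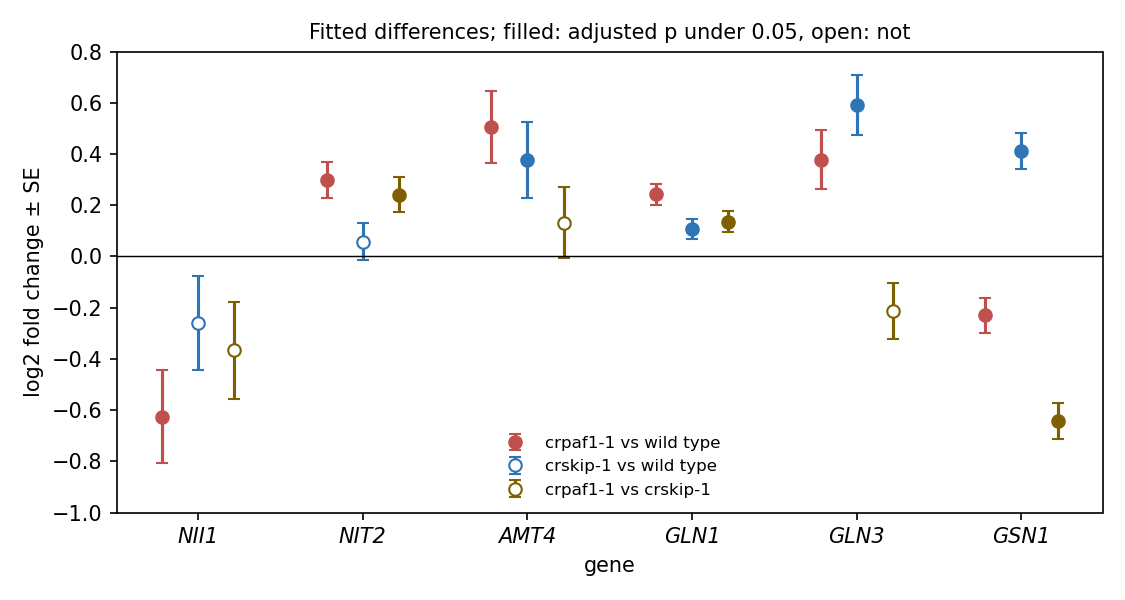
Fitted log2 fold change ± SE (edgeR) of the 6 genes that passed the filter, in crpaf1-1 against wild type, crskip-1 against wild type and crpaf1-1 against crskip-1; filled points have an adjusted p under 0.05. GSN1 lies at -0.23 and 0.41 in the mutants, and the crskip-1 points of AMT4 and GLN1 passed only narrowly (GLN1 is -0.02 with scaling by library size alone).

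The genes whose pattern was most like that of each member were sought by Pearson's r of log2 CPM over the 9 libraries. Since the libraries fall into 3 groups, r mostly describes the group means and is given as a description. For GSN1 the closest was Cre03.g180250_4532.v6.1 (r = 0.993), at 5082910 to 5086301 of chromosome 3 (minus strand), whose group means were 385 CPM (wild type), 342 CPM (crpaf1-1) and 477 CPM (crskip-1). For GLN1 it was Cre02.g080250_4532.v6.1 (r = 0.984), with 116, 163 and 134 CPM in the same order. For NIT2 it was Cre11.g468500_4532.v6.1 (r = 0.978), and for NII1 Cre07.g335950_4532.v6.1 (r = 0.940). An r over 0.95 was reached by 133 genes with GLN1 and 85 with GSN1, so the patterns of GLN1 and GSN1 are widely shared. The numbers were 19 with NIT2, 11 with GLN3, 5 with AMT4 and 0 with NII1. NII1 had only 67 to 125 counts per library, and counting error lowers r at low counts. These numbers therefore do not tell whether the patterns of the weaker genes are less shared. Among the members themselves r ran from -0.751 (NII1 and NIT2) to 0.803 (NIT2 and GLN1).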

How the data were processed

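Raw counts per gene were deposited by the authors, 1 table for each of 9 libraries. Bowtie2 and featureCounts are named in the submitters' processing notes, and per the file headers the alignments were uniquely mapped with duplicates removed; the sources used here give neither versions nor the strand setting. Coordinates are those of the deposited tables, whose gene set is named only by the ID suffix. Gene names come with the given list: the reference table (Chlamydomonas_reinhardtii_v5.5) matched 9 of 9 locus tags and held a symbol for 0. Deposited columns of other samples numbered 0.

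The deposited counts were tested in edgeR 4.0.16 (R 4.3.3; quasi-likelihood F test, TMM scaling, filterByExpr, 9 libraries in 1 fit, no covariate), with Benjamini-Hochberg adjustment over all 13376 genes tested and a threshold of 0.05; 1245 genes fell below the filter. The fit was tested on simulated data. SE is the log2 fold change over the square root of F. CPM uses TMM-scaled library sizes, and CPM per kb divides by exonic length. Log2 CPM for correlations used a prior count of 2.

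All 9 members and, by ID, the genes between and beside NII1, NRT2.1 and NIT1 are named; the latter were chosen by position. The rule for genes alike gave 2 per member, of which 1 is printed for 4 members. Members and lists were chosen with earlier results of these data known. Protein relatives of the members and the mutated genes were not analysed here. Alternatives were DESeq2 1.42.0, other scalings, no filter, lane, replicate block, the 2 groups alone and leaving out each library.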

Additional observations from a re-analysis of the deposited data

Results flagged for a closer look

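The effects of the mutations differed by the direct test for 3 of the 6 genes tested (log2, crpaf1-1 minus crskip-1; edgeR). The difference was -0.64 for GSN1 (SE 0.07, adjusted p = 6.47e-07), 0.24 for NIT2 (SE 0.07, adjusted p = 0.00753) and 0.14 for GLN1 (SE 0.04, adjusted p = 0.00896). With scaling by library size alone, which moves the all-gene median of this comparison to 0.20, these were -0.44, 0.45 and 0.34. Of all genes tested, 53.8% differed in that comparison.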

How the results depend on the processing

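Of 306 log2 fold changes of members under alternatives, 276 kept their direction and side of the threshold, 25 no longer passed, 3 newly passed and 2 reversed. Both reversals came with library size alone in crskip-1 against wild type, NIT2 at -0.0684 and GLN1 at -0.0169. That scaling put the all-gene median at -0.12 there and at 0.20 between the mutants; of the genes called in crskip-1, 27.6% were then higher, not 49.2%. In crskip-1 the members called fell from 4 to 2 with library size alone, with no filter and with the 2 groups alone. AMT4 and GLN1 were lost each time. Of all genes, 50.4%, 45.6% and 47.9% were called under these settings, against 49.5% in the main fit. Leaving out 1 library gave 2 to 4 members, with 43.5% to 48.8% of all genes called. Without wild type replicate 1 the 4 included NII1, called lower, in place of GLN1. In crpaf1-1 leaving out 1 library gave 5 to 6 members (52.6% to 58.8% of all genes), and between the mutants 3 (47.7% to 54.5%). Without crpaf1-1 replicate 2 those 3 included NII1 in place of GLN1. Of genes beside the nitrate cluster, 4 were called in crskip-1 but 2 in lane 2 alone, where 42.35% of all genes were called. Between the mutants 2 were called, but 5 with library size alone, where 61.7% of all genes were called. Leaving out 1 library gave 2 to 4 genes beside the cluster in crpaf1-1, 4 in crskip-1 and 2 to 3 between the mutants. The all-gene shares for those fits are the ranges given above. Replicate numbers were not taken as pairs, since the labels do not say that a number marks a shared day or batch. Deviations from the group means correlated over 0.1 for 4 of 9 same-numbered pairs (-0.0454 to 0.255, against -0.178 to 0.135 for other pairs). All pairs of replicate 1 were among the 4. The replicate 1 libraries, which share lane 3, did deviate together (0.123 to 0.255), and the block raised the share of all genes called in crpaf1-1 from 58.4% to 61.1%. With the replicate block the members called were 6 in crpaf1-1, 4 in crskip-1 and 3 between the mutants, each the same genes as without it. Of all genes, 61.1%, 52.4% and 56.7% were then called, and no call of a gene beside the cluster changed. Protein relatives were not run. Depth limits NIT1 and NRT2.1, and the small changes of weak genes such as AMT4 rest on 60 to 140 counts per library.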
